A study of Mus musculus with 8 samples.

Results

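The epithelium of the mouse cecum was compared between antibiotic-treated samples, named Abx_14D, and control samples, named Ctrl, by single-cell RNA sequencing. The cell table names 4 numbered samples of each group (Abx_14D 1 to 4 and Ctrl 1 to 4), and barcodes with at least 500 transcripts were taken as cells. This gave 3626 cells of the 15916 cells in the series, 2296 in Abx_14D and 1330 in Ctrl. The labels name antibiotics (Abx) as the treatment of the first group and give no agent, dose, strain or age. What 14D stands for is also not given in the sources used here. Epithelium released with EDTA was dissociated, pooled by condition and sorted as EPCAM+ CD45- cells, with CD44+ (proliferative) and CD44- (differentiated) cells loaded at 1:1, per the labels' protocols. The sort can set the shares of crypt and surface cells, which are shares of the sorted cells and not of the tissue. Whether each number stands for its own animal is not stated, and p-values therefore rest on a spread that could be technical. The fits over all cells and per class also held the cecal samples named Abx_4D and GF (germ-free), which shared the estimate of spread.

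The cecal lining lives beside the densest microbial community of the body. Its surface absorptive cells and crypt cells make antibacterial lectins, oxidases and antigen-presenting molecules, several of which are known to depend on microbial signals in the mouse. Below them, stem cells at the crypt base feed a pool of dividing cells that turn into absorptive cells and mucus-secreting goblet cells.

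The Abx_14D samples held 356 to 971 cells and 8068659 to 15414170 transcripts, and the Ctrl samples 191 to 453 cells and 2573787 to 7489436 transcripts. In the median cell, mitochondrial transcripts made up 0.224% to 0.655% in Abx_14D and 0.31% to 0.362% in Ctrl. Abx_14D 3 and 4 were the samples above 0.5%. Xist, expressed from the inactive X chromosome of female cells, was high in Abx_14D 1 and 2 and in Ctrl 1 and 3 and low in the other 4, so both groups held 2 libraries of each kind. Paneth cell markers summed to at most 0.52 counts per 1000000 transcripts (CPM) in Abx_14D and 4.13 CPM in Ctrl. Markers of stroma and vessels summed to 2.99 to 8.76 CPM in Abx_14D and 5.0 to 12.5 CPM in Ctrl. Immune markers summed to 4.06 to 48.3 CPM in Abx_14D and 16.2 to 102 CPM in Ctrl, with Nkg7 at 0 in all 8 samples and Cd8a at 0 in 7. Of 7 M cell markers, Gp2 was at 0 in all 8 samples and Sox8 in all but Ctrl 3, and the list summed to 250 to 312 CPM in Abx_14D and 344 to 408 CPM in Ctrl, without overlap. The part of other cell types in the results was not tested, except where values within gated classes are given.

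Cells were assigned to classes by their summed marker transcripts. The cuts were 64 marker transcripts per 10000 for absorptive cells (Krt20, Slc26a3 and 10 others), 32 for goblet cells (Muc2, Tff3 and others), 16 for cycling cells (Mki67, Top2a and others) and 8 for stem and early crypt cells (Lgr5, Smoc2, Axin2 and others), with at least 3 markers detected. In Abx_14D, 608 cells were absorptive, 666 stem and early crypt, 474 cycling and 134 goblet. In Ctrl the same classes held 255, 511, 230 and 82 cells. Cells with a marker sum within 1.25-fold of a cut were counted on either side of it, whatever their final class. They numbered 187 for the absorptive, 300 for the stem and early crypt, 252 for the cycling and 14 for the goblet cut. Cells outside every class made up 17.4% ± 1.68 in Abx_14D and 16.1% ± 5.83 in Ctrl (SD, n = 4 each). Among the gate markers tested within their own class, 1 of 12 absorptive markers passed the test (Tmigd1, higher in Abx_14D by 1.76 on the log2 scale), and 0 of 9 stem, 0 of 14 cycling and 0 of 8 goblet markers did. Cells were taken into a class by the sum of these same markers, so these counts cannot show that the classes match between groups.

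The shares of absorptive and of stem and early crypt cells varied more between samples than between groups. Absorptive cells made up 7.42%, 16.6%, 37.1% and 29.8% of cells in Abx_14D 1 to 4, against 5.24%, 7.72%, 24.9% and 27.4% in Ctrl 1 to 4. In both groups samples 1 and 2 were low and samples 3 and 4 high, and the groups overlapped. Stem and early crypt cells averaged 32.7% ± 13.0 in Abx_14D and 41.2% ± 11.7 in Ctrl, cycling cells 20.1% ± 1.65 and 18.0% ± 4.32, goblet cells 6.03% ± 0.814 and 6.59% ± 3.01, and tuft cells 0.513% ± 0.433 and 1.18% ± 0.559, with Abx_14D first. None of 8 shares differed past the threshold in two-sided exact permutation tests (smallest p = 0.171, for tuft cells, adjusted p = 0.816). Between same-numbered samples the absorptive share was higher in Abx_14D in 4 of 4 pairs, and the stem and early crypt and tuft shares were lower in 4 of 4. A two-sided exact sign-flip test over these pairs, chosen after seeing the data, gave p = 0.125 for each of the 3, the smallest value that 4 pairs allow (adjusted p = 0.333).

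**Figure D1:**
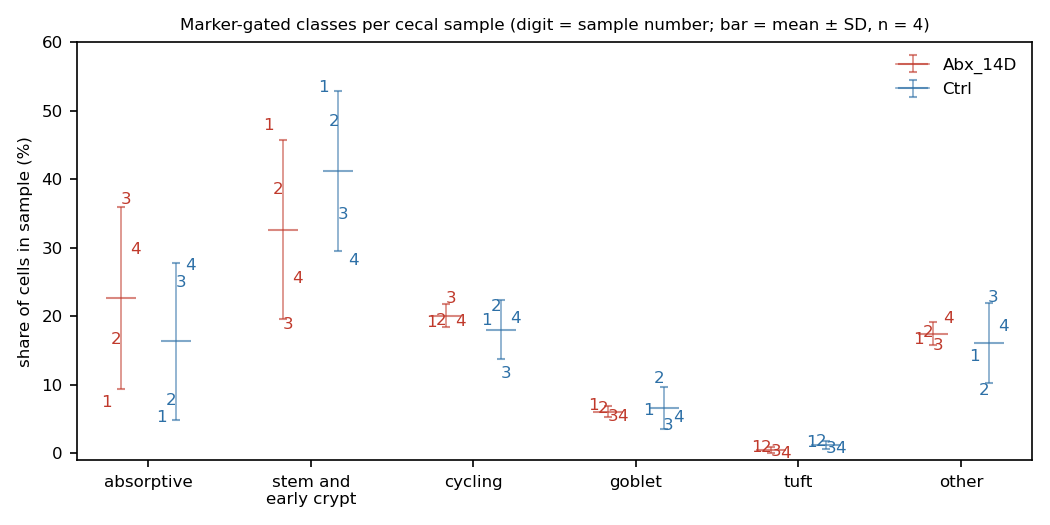
Share of cells per marker-gated class (vertical axis, percent of the cells of a sample) in Abx_14D (red, left) and Ctrl (blue, right). Digits are the sample numbers and bars the mean ± SD of 4 samples. Samples 1 and 2 have the lowest absorptive shares and samples 3 and 4 the highest in both groups.

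Over all cells, 8 of 21 antibacterial genes tested fell in Abx_14D and 1 rose (Zg16), and 6 of 8 MHC class II genes fell. Of 11 metallothionein and zinc genes Mt1 and Mt2 rose, and of 9 iron genes Tfrc. Of 13376 genes tested, 83 rose (0.621%) and 203 fell (1.52%) at an adjusted p under 0.05 (286 genes, 2.14%, by edgeR's quasi-likelihood test with Benjamini-Hochberg adjustment), with a median log2 change of 0.01 over all genes. In sums over all cells, a change in the mix of classes and a change within cells cannot be told apart, so the classes follow. Same-numbered samples deviated together in these sums, less so within the classes, and the main fit did not take this into account. Abx_14D 3 correlated more with Ctrl 4 (0.353) than with Ctrl 3 (0.225), so the number may not mark a pair. With the sample number as a block, 180 genes rose and 402 fell (582 in all). Without Abx_14D 3 the count was 154 and without Abx_14D 4 it was 166. Without both of these samples, which have the most mitochondrial transcripts, 86 genes passed, 77 of them among the 286. Abx_14D 3 and 4 are also the Xist-low libraries of their group and have its highest absorptive shares. This setting leaves only Abx_14D 1 and 2, both Xist-high, against Ctrl samples of both Xist kinds. The parts of mitochondrial transcripts, Xist class, class mix and fewer samples in the lost calls were not tested.

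Plet1, a surface protein of the upper crypt, was at 1.57, 3.47, 0.91 and 2.75 CPM in Abx_14D 1 to 4, against 76.5, 116, 92.9 and 170 CPM in Ctrl 1 to 4. The lowest Ctrl sample was far above the highest Abx_14D sample, and Plet1 fell by 5.77 ± 0.42 (SE) on the log2 scale (adjusted p = 9.25e-07). The other large falls over all cells were Reg3b (7.20), B3galt5 (5.02), Duox2 (4.95), Cd177 (4.89), Nos2 (4.89), Reg3g (4.72), Ceacam10 (4.64), Pla2g5 (4.31), S100g (3.60), H2-Eb1 (3.48) and H2-Aa (3.47). In all 12 genes the 4 Abx_14D samples lay below the 4 Ctrl samples. The groups were separate in 6.82% of all genes tested, with 4.08% lower and 2.74% higher in Abx_14D, and the rule for named genes required it.

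The largest rises over all cells were Mt2 (log2 change 3.25), Ugt8a (2.86), Mt1 (2.54), Plscr4 (2.48), Cyp4f14 (2.38), 5430427M07Rik (2.25), Zg16 (2.00), Slc9a3 (1.96), Enpep (1.67), Apob (1.54), Bche (1.51) and Pcdh17 (1.41). Tfrc, the transferrin receptor that takes up iron, was at 1109, 1279, 853 and 1060 CPM in Abx_14D 1 to 4 and 648, 283, 338 and 462 CPM in Ctrl 1 to 4, a log2 change of 1.31 ± 0.24 (adjusted p = 0.00597). Groups did not overlap in any of these genes. Apob and 5430427M07Rik lost their call without Abx_14D 3 (adjusted p = 0.0566 and 0.0549). Slc9a3 lost its call without Abx_14D 3 or 4 or Ctrl 1 or 2 (adjusted p up to 0.081), and Enpep without any 1 sample other than Abx_14D 1 and 2 (up to 0.198). Zg16 lost its call without any 1 sample other than Abx_14D 1 and Ctrl 1 (up to 0.0976), and Pcdh17 without Abx_14D 2 or 4 or Ctrl 2, 3 or 4 (up to 0.0661). Leaving out both Abx_14D 3 and 4 ended 8 of the 12 calls, those of Ugt8a (log2 change 1.89, adjusted p = 0.0685), Plscr4 (1.25, 0.17), Cyp4f14 (1.48, 0.0533), 5430427M07Rik (1.58, 0.205), Zg16 (1.56, 0.343), Slc9a3 (1.26, 0.144), Enpep (0.80, 0.319) and Apob (0.97, 0.139).

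**Figure D2:**
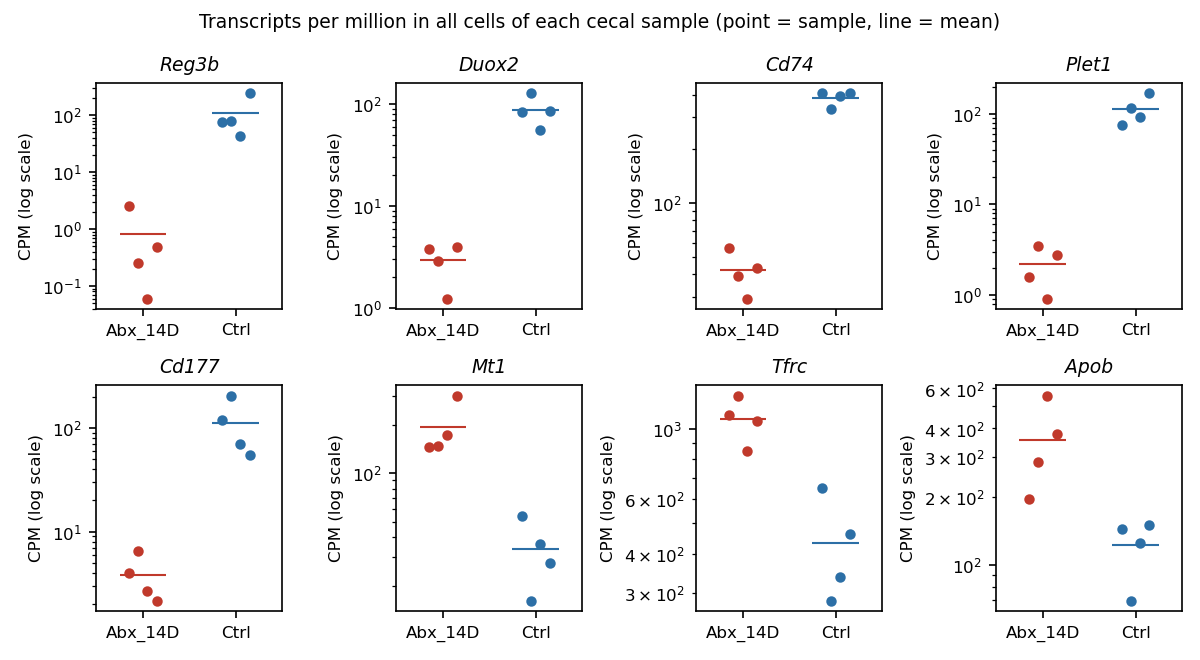
Level of 8 genes in all cells of each sample (vertical axes, CPM on a log scale), with Abx_14D on the left and Ctrl on the right of each panel. Points are samples and lines means of 4. The groups do not overlap in any panel, with Reg3b, Duox2, Cd74, Plet1 and Cd177 lower and Mt1, Tfrc and Apob higher in Abx_14D.

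Within the classes, 340 genes rose and 314 fell of 8877 tested in absorptive cells (654 genes, 7.37%), 70 rose (0.626%) and 141 fell (1.26%) of 11174 in stem and early crypt cells (211 genes, 1.89%), and 48 rose (0.453%) and 113 fell (1.07%) of 10587 in cycling cells (161 genes, 1.52%). Goblet cells had 3 rises (0.0335%) and 11 falls (0.123%) among 8947 genes (14 genes, 0.156%). The median log2 change of all genes was 0.10 in absorptive cells (0.02 with TMM scaling), 0.03 in stem and early crypt cells, and 0.04 in both cycling and goblet cells. Absorptive sums rest on 33 to 360 cells per Abx_14D sample and on 10, 22, 113 and 110 cells in Ctrl 1 to 4. Without Ctrl 4, 414 genes passed in absorptive cells, and without Abx_14D 3, 104 passed in cycling cells. The 4 samples of each group did not overlap in 12.9% of genes tested in absorptive cells (7.49% higher and 5.37% lower in Abx_14D), 7.45% in stem and early crypt cells (3.60% and 3.86%), 6.38% in cycling cells (3.32% and 3.06%) and 5.07% in goblet cells (3.02% and 2.06%). An unadjusted p under 0.05 was reached by 14% of genes over all cells and by 19.8%, 13.9%, 11.2% and 7.34% of genes in absorptive, stem and early crypt, cycling and goblet cells. Without Abx_14D 3 and 4 together, 322 genes passed in absorptive, 83 in stem and early crypt and 60 in cycling cells, and 58 of the called gene results given here lost their call. The difference between classes was not fitted in this setting.

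Antibacterial proteins fell in surface and crypt cells. Of the 33 genes of this list, 8 of 16 tested fell and 0 rose in absorptive cells (median log2 change -0.95, where 3.54% of all genes fell). Stem and early crypt cells had 9 of 12 down and 0 rose (median -1.89, background 1.26%), and in cycling cells 8 of 12 fell and 0 rose (median -2.38, background 1.07%). Reg3b, a C-type lectin secreted against bacteria, had 0 counts in the stem and early crypt cells of every Abx_14D sample, against 76.6, 89.1, 10.04 and 173 CPM in Ctrl 1 to 4. Over the group this was at least 309-fold lower, against a floor of 3 counts. In absorptive cells Reg3b was at 0, 0.84, 0 and 1.06 CPM in Abx_14D 1 to 4 and 47.5, 154, 42.5 and 273 CPM in Ctrl 1 to 4, a fall of 8.15 ± 0.76 on the log2 scale (adjusted p = 9.03e-08). Ctrl 4 was the highest sample in both classes and the groups did not overlap.

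Reg3g is a close relative of Reg3b that kills Gram-positive bacteria in the mouse. In absorptive cells it had 2 counts in Abx_14D, 390-fold lower than in Ctrl (95% counting interval 107 to 3240). In stem and early crypt cells it was at 3.64, 2.42, 8.78 and 4.08 CPM in Abx_14D 1 to 4 and 35.5, 61.4, 16.4 and 81.3 CPM in Ctrl 1 to 4, a fall of 3.39 ± 0.45. The groups were separate in both classes, and the change differed between them by -5.01 ± 0.77 on the log2 scale (absorptive minus stem and early crypt, adjusted p = 0.000946). Pglyrp1, a peptidoglycan recognition protein, fell by 1.90 ± 0.44 in absorptive, 1.16 ± 0.25 in stem and early crypt and 1.53 ± 0.33 in cycling cells, without overlap. Its call was lost without Ctrl 2 in absorptive cells, without Abx_14D 2 or Ctrl 1 in stem and early crypt cells and without Abx_14D 2 or 3 or Ctrl 2 in cycling cells (adjusted p up to 0.0871).

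Enzymes that make hydrogen peroxide and nitric oxide fell with the lectins. Duox2, an oxidase of the apical membrane, was at 7.59, 0.84, 1.57 and 2.12 CPM in absorptive cells of Abx_14D 1 to 4 and 52.3, 145, 95.2 and 155 CPM in those of Ctrl 1 to 4. It fell by 5.71 ± 0.52 there, by 4.57 ± 0.45 in stem and early crypt cells and by 5.09 ± 0.51 in cycling cells, and the difference between absorptive and stem and early crypt cells did not pass the test (-0.90 ± 0.57, adjusted p = 0.493). Its maturation factor Duoxa2 fell by 5.78 ± 0.86 in absorptive and 4.06 ± 0.81 in stem and early crypt cells. Nos2, the inducible nitric oxide synthase, was tested in crypt classes only. In stem and early crypt cells it was at 1.96, 1.04, 1.25 and 0 CPM in Abx_14D 1 to 4 and 19.3, 62.5, 55.5 and 77.6 CPM in Ctrl 1 to 4, a fall of 5.43 ± 0.47. All 4 Abx_14D samples were near 0 and Ctrl 1 was the lowest Ctrl sample. Nox1, an oxidase of colonic crypts, fell by 1.09 ± 0.17 in the same cells. The stem and early crypt calls of Duoxa2 and Nox1 were lost without Abx_14D 3 and 4 (adjusted p = 0.128 and 0.0519). In absorptive cells Pigr, the receptor that carries IgA into the lumen, averaged 1265 ± 389 CPM in Abx_14D and 3400 ± 536 CPM in Ctrl (log2 change -1.43 ± 0.31, adjusted p = 0.00417).

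Genes of MHC class II, which presents peptides to CD4 T cells, fell in the 3 larger classes, and 1 of 4 tested fell in goblet cells (Cd74). The list of 11 had 5 of 7 tested members down in absorptive cells (median log2 change -3.71), 6 of 8 in stem and early crypt cells (-3.04) and 6 of 8 in cycling cells (-3.32), with 0 up. Of all genes tested, 3.54%, 1.26%, 1.07% and 0.123% fell in absorptive, stem and early crypt, cycling and goblet cells. Cd74, the invariant chain that chaperones class II, was at 36.4, 36.8, 13.1 and 16.6 CPM in absorptive cells of Abx_14D 1 to 4 and 57.0, 355, 518 and 458 CPM in those of Ctrl 1 to 4 (log2 change -3.99 ± 0.50, adjusted p = 6.67e-06). The lowest Ctrl value, in Ctrl 1, comes from 10 cells. Cd74 in stem and early crypt cells was at 75.1, 51.1, 68.2 and 69.3 CPM in Abx_14D 1 to 4 and 583, 422, 364 and 504 CPM in Ctrl 1 to 4, a fall of 2.83 ± 0.23 with both groups tight and far apart.

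The peptide-binding chains followed Cd74. H2-Ab1 in stem and early crypt cells averaged 9.89 ± 2.94 CPM in Abx_14D and 84.6 ± 12.7 CPM in Ctrl (log2 change -3.14 ± 0.27), H2-Aa 2.61 ± 1.41 and 37.3 ± 9.70 CPM (-3.93 ± 0.33), and H2-Eb1 3.01 ± 1.44 and 52.1 ± 13.2 CPM (-4.03 ± 0.36), with Abx_14D first. None of the 3 chains overlapped between groups in these cells. In absorptive cells H2-Ab1, H2-Aa and H2-Eb1 fell by 3.71 ± 0.47, 4.13 ± 0.55 and 3.77 ± 0.59, and the groups overlapped for H2-Aa and H2-Eb1, which were at 0 in the 10 cells of Ctrl 1. Ciita, the coactivator that switches class II genes on, fell by 3.07 ± 0.35 in stem and early crypt cells (4.17 ± 2.02 CPM in Abx_14D and 36.0 ± 12.1 CPM in Ctrl). The change did not differ past the test between absorptive and stem and early crypt cells for Cd74 (-1.23 ± 0.50, adjusted p = 0.218), H2-Ab1 (-0.65 ± 0.43, 0.513), H2-Aa (-0.15 ± 0.74, 0.96) or H2-Eb1 (0.71 ± 0.67, 0.693). Immune markers were near 0 in these gated cells. The 13 markers summed to 0.52 to 3.04 CPM in absorptive cells of Abx_14D and 0 to 1.08 CPM in those of Ctrl, and to 0.28 to 3.49 CPM in stem and early crypt cells of Abx_14D and 1.62 to 16.1 CPM in those of Ctrl.

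The start regions of class II genes are shown because H2-Aa and H2-Eb1 moved together in each of the 3 larger classes. They are the 250 bases before to 50 bases after the start, from RefSeq on GRCm38.p6, whereas the counts use mm39. Capitals mark CCAAT or its complement ATTGG, the core of the Y box of class II promoters. H2-Aa lies at chr17:34287774-34288073 on the minus strand and H2-Eb1 at chr17:34305617-34305916 on the plus strand.
H2-Aa: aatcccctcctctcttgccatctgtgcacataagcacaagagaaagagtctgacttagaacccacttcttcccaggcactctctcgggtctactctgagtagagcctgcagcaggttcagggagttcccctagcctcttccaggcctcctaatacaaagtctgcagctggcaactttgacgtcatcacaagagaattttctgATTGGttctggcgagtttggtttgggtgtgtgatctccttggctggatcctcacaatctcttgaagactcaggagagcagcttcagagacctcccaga
H2-Eb1: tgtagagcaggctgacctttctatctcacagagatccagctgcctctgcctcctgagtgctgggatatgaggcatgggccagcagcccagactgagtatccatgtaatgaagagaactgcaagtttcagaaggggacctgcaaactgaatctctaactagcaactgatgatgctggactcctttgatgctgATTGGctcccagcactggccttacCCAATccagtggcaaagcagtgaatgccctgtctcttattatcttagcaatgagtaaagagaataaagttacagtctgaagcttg
On both strands H2-Aa held 1 match and H2-Eb1 2, with no overlap between matches. At least 1 match occurs in 37.4% and at least 2 in 11.7% of 32851 windows of the same length, so the match by itself is common.

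MHC class I, which presents peptides to CD8 T cells, and the interferon response changed in few members. Of class I genes, 5 of 19 tested fell in absorptive cells (H2-Q1, Tap1, Psmb8, Psmb9 and Psme2, median of the list -0.39, where 3.54% of all genes fell) and 4 of 18 in stem and early crypt cells (H2-K1, H2-Q4, Psmb8 and Nlrc5, median -0.50, background 1.26%), with 0 up. With 1 sample left out the count was as low as 2 in absorptive and 3 in stem and early crypt cells, and without Abx_14D 3 and 4 together it was 1 in each. Psmb8, a subunit of the immunoproteasome, was at 11.8, 8.97, 8.36 and 4.66 CPM in stem and early crypt cells of Abx_14D 1 to 4 and 27.4, 23.9, 31.2 and 35.0 CPM in those of Ctrl 1 to 4, a fall of 1.74 ± 0.24 without overlap. The classical chain H2-K1 averaged 133 ± 14.9 CPM in Abx_14D and 215 ± 42.4 CPM in Ctrl there (log2 change -0.69 ± 0.13, adjusted p = 0.00589), and the class I coactivator Nlrc5 fell by 1.91 ± 0.40. Both calls were lost without Abx_14D 3 and 4 (adjusted p = 0.125 for H2-K1 and 0.0835 for Nlrc5).

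Of 55 interferon response genes tested in absorptive cells, 1 rose (Samd9l) and 2 fell (Irf1 and Zbp1), with a median of 0.13. These shares are near or below those of all genes, of which 3.83% rose and 3.54% fell. Of 43 tested in stem and early crypt cells 4 fell (Irf1, Gbp7, Iigp1 and Irgm2) and 0 rose, with a median of -0.25 and a background of 1.26%. Irf1, a transcription factor of the interferon gamma response, fell by 1.25 ± 0.24 in absorptive cells. Iigp1, a GTPase induced by interferon gamma, was at 15.4, 8.28, 7.11 and 11.7 CPM in stem and early crypt cells of Abx_14D 1 to 4 and 48.4, 41.3, 69.2 and 86.7 CPM in those of Ctrl 1 to 4 (log2 change -2.52 ± 0.33). Every Abx_14D sample was below every Ctrl sample for Iigp1. The calls of Samd9l and Zbp1 were lost when 1 of several samples was left out (Abx_14D 2 or 3 or Ctrl 2, 3 or 4 for Samd9l, Abx_14D 3 or 4 or Ctrl 1 or 4 for Zbp1, adjusted p up to 0.134 and 0.0976). Irf1 in stem and early crypt cells, with a log2 change of -0.85 ± 0.22, lost its call without any 1 sample other than Abx_14D 4 and Ctrl 2 (adjusted p up to 0.208).

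**Figure D3:**
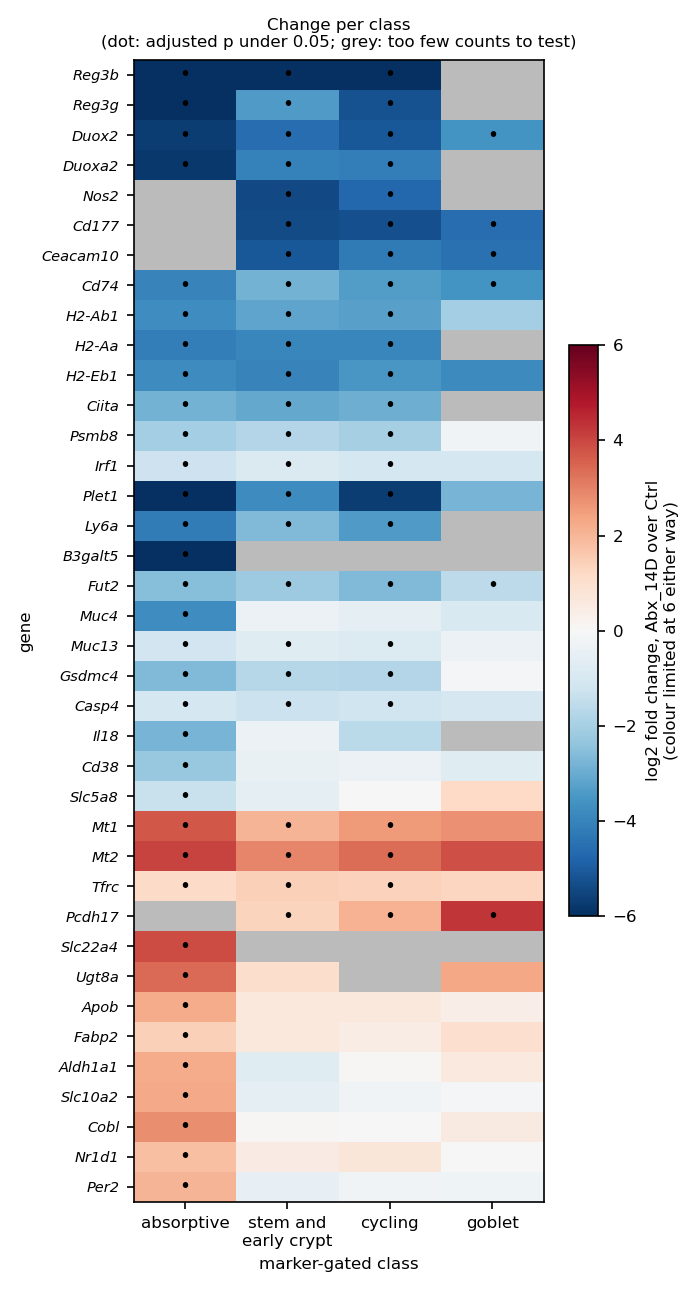
Log2 fold change of Abx_14D over Ctrl (colour, limited at 6 either way) for 38 genes (rows) in 4 marker-gated classes (columns), with dots where the adjusted p is under 0.05 and grey where counts were too low to test. Defence, class II and Fut2 rows are blue in every class tested, Mt1, Mt2 and Tfrc red in every class, and the rows from Slc22a4 to Per2 have dots in the absorptive column only.

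Of glycan and mucin genes, 8 of 26 tested fell in absorptive cells and 1 rose (B4galnt3, median of the list -0.25, where 3.54% of all genes fell). Stem and early crypt cells had 2 of 29 down and 1 up (background 1.26% down and 0.626% up). Cycling cells had 3 of 27 down and 0 up (1.07% down), and the lists were not tested between classes. B3galt5, a galactosyltransferase that builds type 1 glycan chains, was at 1.52, 3.34, 2.96 and 5.30 CPM in absorptive cells of Abx_14D 1 to 4 and 556, 377, 136 and 369 CPM in those of Ctrl 1 to 4, a fall of 6.57 ± 0.46 (adjusted p = 1.06e-09). Fut2, the fucosyltransferase that adds the fucose that gut bacteria feed on, was at 53.1, 27.6, 42.8 and 43.8 CPM in Abx_14D 1 to 4 and 304, 264, 187 and 255 CPM in Ctrl 1 to 4 (log2 change -2.58 ± 0.22). Both genes were separate between groups in all samples. Fut2 also fell by 2.20 ± 0.32 in stem and early crypt cells and by 2.63 ± 0.31 in cycling cells.

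Muc4, a membrane-bound mucin, differed between surface and crypt. In absorptive cells it was at 22.8, 25.9, 41.8 and 29.3 CPM in Abx_14D 1 to 4 and 257, 664, 372 and 388 CPM in Ctrl 1 to 4, a fall of 3.74 ± 0.29. In stem and early crypt cells it was at 343, 391, 346 and 333 CPM in Abx_14D 1 to 4 and 530, 482, 413 and 370 CPM in Ctrl 1 to 4, with overlap (log2 change -0.34 ± 0.21, adjusted p = 0.495). The change differed between the classes by -3.37 ± 0.26 (adjusted p = 1.71e-07). Muc13, another membrane mucin, averaged 1559 ± 298 CPM in absorptive cells of Abx_14D and 3464 ± 385 CPM in those of Ctrl (log2 change -1.15 ± 0.20).

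Plet1 was the gene with the largest fall in absorptive cells among those named by the rule. It was at 1.52, 0, 1.92 and 1.41 CPM in Abx_14D 1 to 4 and 537, 639, 223 and 538 CPM in Ctrl 1 to 4, a fall of 8.25 ± 0.42 (adjusted p = 1.48e-12). Plet1 in stem and early crypt cells, where Ctrl had 24.2 to 44.6 CPM and Abx_14D 0 to 5.18 CPM, fell by 3.79 ± 0.59. The difference between the classes of -3.97 ± 0.87 (adjusted p = 0.0131) lost its call without Abx_14D 2 (adjusted p = 0.23). Plet1 belongs to a list of 23 regeneration and fetal-like genes, of which 4 of 12 tested fell in absorptive cells (Ly6a, Krt7, Ereg and Plet1) and 2 rose (Anxa1 and F3). Among all genes tested there, 3.54% fell and 3.83% rose. Ly6a, the surface protein Sca-1, averaged 5.76 ± 1.10 CPM in absorptive cells of Abx_14D and 116 ± 48.9 CPM in those of Ctrl (log2 change -4.17 ± 0.38). Anxa1, a phospholipid-binding protein, rose to 87.4 ± 25.7 CPM in Abx_14D, against 17.2 ± 10.9 CPM in Ctrl (2.71 ± 0.39).

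The other large falls of absorptive cells were Pik3ap1 (5.68), Gm52981 (4.75), S100g (4.63), Fry (4.41) and Tpm2 (4.14), each without overlap. S100g, an intracellular calcium buffer, was at 9.11, 2.51, 2.09 and 2.47 CPM in Abx_14D 1 to 4 and 114, 59.8, 69.4 and 67.4 CPM in Ctrl 1 to 4. Aqp4, a water channel, was at 6.07, 4.18, 10.97 and 8.13 CPM in Abx_14D 1 to 4 and 47.5, 346, 63.0 and 77.2 CPM in Ctrl 1 to 4 (log2 change -3.92 ± 0.48). Ctrl 2 stood above the other Ctrl samples for Aqp4, and the lowest Ctrl sample was still above the highest Abx_14D sample.

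Gasdermins of the C group are pore-forming proteins. In absorptive cells 7 of 26 tested members of this list fell (Gsdmc2, Gsdmc3, Gsdmc4, Casp4, Casp8, Il18 and Tlr2) and 0 rose, with a median of -0.23 (background 3.54%), and 5 fell without Abx_14D 3 and 4. Gsdmc4 was at 263, 122, 137 and 173 CPM in Abx_14D 1 to 4 and 1274, 1268, 884 and 846 CPM in Ctrl 1 to 4 (log2 change -2.63 ± 0.38), and Gsdmc2 fell by 2.90 ± 0.39. The Gsdmc genes are near-identical copies, and the sources used here do not say how reads common to them were assigned, so their separate values are uncertain. Il18, a cytokine released by the inflammasome, averaged 16.4 ± 6.47 CPM in Abx_14D and 107 ± 33.1 CPM in Ctrl (-2.78 ± 0.36). Of 28 tested in stem and early crypt cells 4 fell (Gsdmc3, Gsdmc4, Casp4 and Nod2), against 1.26% of all genes. Casp4 (caspase-11 of the mouse), which senses lipopolysaccharide inside cells, was at 31.1, 41.4, 49.3 and 34.4 CPM in Abx_14D 1 to 4 and 104, 77.2, 109 and 93.2 CPM in Ctrl 1 to 4 there, a fall of 1.29 ± 0.17 without overlap. Nod2, a sensor of bacterial cell wall fragments, averaged 18.9 ± 2.62 CPM in Abx_14D and 37.0 ± 4.53 CPM in Ctrl (log2 change -0.97 ± 0.19).

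Several genes fell in the crypt that were too low to test in absorptive cells. Cd177, a surface glycoprotein known from neutrophils, was at 3.08, 5.87, 4.18 and 2.91 CPM in stem and early crypt cells of Abx_14D 1 to 4 and 160, 272, 145 and 109 CPM in those of Ctrl 1 to 4, a fall of 5.38 ± 0.41 (adjusted p = 9.41e-08). In absorptive cells Cd177 averaged 1.42 CPM in Abx_14D and 3.10 CPM in Ctrl, and the change differed between the classes by 3.63 ± 0.65 (adjusted p = 0.00309). Ceacam10, a secreted member of the carcinoembryonic antigen family, and Pla2g5, a secreted phospholipase, fell by 5.09 ± 0.41 and 4.11 ± 0.46 in stem and early crypt cells. Wfdc2, an antibacterial protease inhibitor, averaged 4.70 ± 2.34 CPM in Abx_14D and 29.0 ± 13.7 CPM in Ctrl (log2 change -2.63 ± 0.36). Tnf, an inflammatory cytokine that was singled out after its values were seen, was at 12.1, 4.83, 6.69 and 8.15 CPM in Abx_14D 1 to 4 and 67.7, 66.3, 44.9 and 41.5 CPM in Ctrl 1 to 4 (-2.76 ± 0.36). For each of these genes every Abx_14D sample was below every Ctrl sample. Immune markers within the same cells were at 16.1 CPM in Ctrl 1 and at most 3.49 CPM in the other 7 samples.

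Metallothioneins, small proteins that bind zinc and other metals, rose in surface and crypt cells. Of 14 metallothionein and zinc genes, Mt1 and Mt2 rose in absorptive, stem and early crypt, and cycling cells, and the other 8 or 9 tested did not pass in any of the 3 classes (median -0.03 in absorptive and 0.09 in stem and early crypt cells). Among all genes tested, 3.83%, 0.626% and 0.453% rose in these classes. Mt1 was at 143, 98.6, 134 and 269 CPM in absorptive cells of Abx_14D 1 to 4 and 0, 3.15, 18.3 and 11.3 CPM in those of Ctrl 1 to 4, a rise of 3.73 ± 0.45 (adjusted p = 4.77e-06). In stem and early crypt cells it was at 136, 128, 165 and 288 CPM in Abx_14D 1 to 4 and 66.1, 23.4, 51.3 and 35.0 CPM in Ctrl 1 to 4, a rise of 2.04 ± 0.35 that lost its call without Abx_14D 3 and 4 (1.61, adjusted p = 0.063). Abx_14D 4 was the highest sample in both classes and the groups did not overlap. The rise of Mt1 was larger in absorptive cells by 1.61 ± 0.30 (adjusted p = 0.00438), and that of Mt2 by 1.34 ± 0.39 (adjusted p = 0.0681, not past the threshold). Mt2 rose by 2.92 ± 0.39 in stem and early crypt cells (192 ± 64.2 CPM in Abx_14D and 25.7 ± 14.8 CPM in Ctrl) and by 3.34 ± 0.38 in cycling cells.

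Mt1 and Mt2 are neighbours on chromosome 8, and their start regions are shown because both rose in absorptive, stem and early crypt, and cycling cells. The windows are again from RefSeq on GRCm38.p6, at chr8:94178839-94179138 for Mt1 and chr8:94172368-94172667 for Mt2, both on the plus strand. Capitals mark TGCNCNC or its complement. This is a looser form of the core of the metal response element, TGCRCNC, in which R is A or G.
Mt1: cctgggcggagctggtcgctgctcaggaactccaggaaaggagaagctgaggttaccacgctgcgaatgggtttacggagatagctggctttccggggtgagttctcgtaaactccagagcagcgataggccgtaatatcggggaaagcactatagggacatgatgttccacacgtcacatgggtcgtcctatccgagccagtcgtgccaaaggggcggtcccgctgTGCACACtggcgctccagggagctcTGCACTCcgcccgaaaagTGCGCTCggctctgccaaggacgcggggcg
Mt2: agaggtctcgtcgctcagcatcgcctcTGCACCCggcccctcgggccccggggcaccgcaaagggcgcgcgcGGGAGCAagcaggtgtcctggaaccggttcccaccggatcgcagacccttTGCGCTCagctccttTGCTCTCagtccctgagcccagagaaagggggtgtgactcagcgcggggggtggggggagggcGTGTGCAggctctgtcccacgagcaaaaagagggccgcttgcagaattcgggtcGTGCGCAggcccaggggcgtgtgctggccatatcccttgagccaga
Mt1 held 3 matches to the looser form and Mt2 6, with no overlap between matches. Of those in Mt2, TGCTCTC and GGGAGCA do not match the core itself. At least 3 matches to the looser form occur in 7.1% and at least 6 in 0.225% of the 32851 windows, and the core itself was not counted.

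Tfrc rose in each of the 3 larger classes. In stem and early crypt cells it was at 1273, 1471, 1326 and 1636 CPM in Abx_14D 1 to 4 and 669, 287, 556 and 590 CPM in Ctrl 1 to 4, a rise of 1.44 ± 0.21 (adjusted p = 0.000308). It rose by 1.38 ± 0.23 in cycling and 1.17 ± 0.28 in absorptive cells, where it lost its call without Ctrl 3 (adjusted p = 0.0582). Groups did not overlap in any of the 3 classes. Of the other iron genes only Ftl1, the ferritin light chain, passed, in absorptive cells, and it overlapped (743 ± 225 CPM in Abx_14D and 333 ± 116 CPM in Ctrl, log2 change 1.19 ± 0.27, adjusted p = 0.0622 without Abx_14D 3 and 4).

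Some genes of lipid packaging and bile acid uptake rose in absorptive cells, and retinoid genes changed in both directions. Where 3.83% of all genes rose, 5 of 15 tested genes of dietary lipid packaging rose (Apob, Creb3l3, Fabp2, Vldlr and Dgat1) and 1 fell (Gpat3). Apob, the scaffold of chylomicrons, was at 843, 963, 1189 and 769 CPM in Abx_14D 1 to 4 and 314, 104, 189 and 221 CPM in Ctrl 1 to 4, a rise of 2.21 ± 0.27 (adjusted p = 6.32e-06). Vldlr, a lipoprotein receptor, averaged 77.5 ± 24.9 CPM in Abx_14D and 13.0 ± 1.72 CPM in Ctrl (2.63 ± 0.36), and Fabp2, which carries fatty acids in the cell, 1091 ± 316 and 396 ± 87.2 CPM (1.44 ± 0.28). Apob, Vldlr and Fabp2 were higher in every Abx_14D sample than in any Ctrl sample. The lipid regulator Creb3l3 lost its call without Ctrl 3 or Ctrl 4 (adjusted p up to 0.0855), Gpat3 without Abx_14D 3 (0.055), and Dgat1 with any 1 sample left out (0.0583 to 0.125) and with the sample number as a block (0.0586). These 3 also lost their calls without Abx_14D 3 and 4 together (adjusted p = 0.213 to 0.301), and the groups overlapped for Creb3l3. The list had 0 of 16 genes called in stem and early crypt cells, and the change of Apob differed between the classes by 1.59 ± 0.18 (adjusted p = 5.67e-05).

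Of 7 retinoid genes tested in absorptive cells, 3 rose (Rbp2, Lrat and Aldh1a1) and 2 fell (Rdh16 and Dhrs3), where 3.83% of all genes rose and 3.54% fell. Aldh1a1, which makes retinoic acid from retinal, was at 1040, 974, 1232 and 919 CPM in Abx_14D 1 to 4 and 285, 173, 206 and 241 CPM in Ctrl 1 to 4, a rise of 2.21 ± 0.21 (adjusted p = 9.03e-08). Aldh1a1 in stem and early crypt cells averaged 115 ± 10.4 CPM in Abx_14D and 191 ± 80.4 CPM in Ctrl (log2 change -0.72 ± 0.27, adjusted p = 0.207), and the change differed between the classes by 2.86 ± 0.18 (adjusted p = 2.61e-08). Rbp2, a retinol carrier, averaged 64.3 ± 28.7 CPM in Abx_14D and 8.14 ± 5.60 CPM in Ctrl in absorptive cells (2.81 ± 0.41). Rdh16, a retinol dehydrogenase, went the other way, at 20.5 ± 3.84 CPM in Abx_14D and 181 ± 72.2 CPM in Ctrl (-3.11 ± 0.30). Dhrs3, which turns retinal back to retinol, lost its call without any 1 of Abx_14D 1, 3 and 4 and Ctrl 2 and 4 (adjusted p up to 0.204). Dhrs3 and Lrat lost theirs without Abx_14D 3 and 4 together (0.29 and 0.0572), and the groups overlapped for both.

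The bile acid importer Slc10a2 was at 425, 461, 625 and 555 CPM in absorptive cells of Abx_14D 1 to 4 and 99.8, 104, 91.5 and 127 CPM in those of Ctrl 1 to 4, a rise of 2.28 ± 0.25 (adjusted p = 7.83e-07) with wide separation. The exporter subunit Slc51a averaged 97.5 ± 13.0 CPM in Abx_14D and 50.8 ± 15.3 CPM in Ctrl (1.05 ± 0.29), a call lost without Abx_14D 3, Ctrl 3 or Ctrl 4 (adjusted p up to 0.143). These were the 2 called genes of 5 bile acid genes tested, where 3.83% of all genes rose. None of 5 passed in stem and early crypt cells.

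Of 21 brush border genes tested in absorptive cells 4 rose (Enpep, Mep1a, Naaladl1 and Cobl) and 0 fell, with Mep1a lost without Abx_14D 3 and 4 (adjusted p = 0.0796). The share of all genes that rose there was 3.83%. Cobl, an actin nucleator of microvilli, was at 431, 692, 648 and 677 CPM in Abx_14D 1 to 4 and 47.5, 59.8, 107 and 105 CPM in Ctrl 1 to 4, a rise of 2.81 ± 0.26 (adjusted p = 9.03e-08). Enpep, a membrane peptidase, averaged 94.1 ± 33.9 CPM in Abx_14D and 15.6 ± 11.4 CPM in Ctrl (2.68 ± 0.54). Neither gene overlapped between groups. The peptidase Naaladl1 rests on Abx_14D 1 at 83.5 CPM, against 2.12 to 5.75 CPM in the other 3 Abx_14D samples and 3 counts in all Ctrl cells. Its ratio was 13.8 (95% counting interval 4.6 to 68.3), and its log2 change was 4.52 in the fit, 2.45 without Abx_14D 1, with the call also lost without Ctrl 2, 3 or 4 (adjusted p up to 0.131).

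Of 13 tested enzymes of the first phase of xenobiotic breakdown 6 rose in absorptive cells (Cyp2c65, Cyp2d26, Cyp2j6, Cyp3a13, Cyp4f14 and Cyp4b1), and over the whole list of 38 tested 7 rose and 1 fell (Ces2a), with a median of 0.34. Of all genes tested in these cells, 3.83% rose and 3.54% fell. Cyp4f14, which hydroxylates fatty acids and eicosanoids, was at 380, 453, 558 and 473 CPM in Abx_14D 1 to 4 and 76.0, 126, 72.1 and 75.8 CPM in Ctrl 1 to 4 (log2 change 2.47 ± 0.20). Slc22a4, the carrier of the antioxidant ergothioneine, was at 16.7, 86.1, 66.2 and 78.8 CPM in Abx_14D 1 to 4 and 0, 12.6, 5.38 and 1.97 CPM in Ctrl 1 to 4 (3.90 ± 0.53). Abx_14D 1 was the lowest Abx_14D sample for both genes, and it was above every Ctrl sample. Ugt8a, which makes galactosylceramide, averaged 98.1 ± 35.4 CPM in Abx_14D and 8.14 ± 6.94 CPM in Ctrl (3.40 ± 0.37).

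The remaining large rises of absorptive cells named by the rule were Itpripl2 (log2 change 3.59), Susd4 (3.49), Cadm1 (3.87) and Grin3a (4.31), and 3 genes with 2 or 3 counts in Ctrl. Homer2, a synaptic scaffold protein, was 108-fold higher in Abx_14D (95% counting interval 29.8 to 895), Prss23, a secreted serine protease, 81.8-fold (22.5 to 678), and 1700057G04Rik 84.9-fold (28.9 to 413). The 3 Ctrl counts of 1700057G04Rik were all in Ctrl 1, and without it the fitted log2 change was 9.62, against 6.24 with it. In none of these 7 genes did the groups overlap.

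Clock genes moved in absorptive cells, where 7 of 15 tested rose (Per2, Per3, Nr1d1, Nr1d2, Bhlhe40, Dbp and Tef) and 1 fell (Nfil3), with a median of 1.07. Of all genes tested there, 3.83% rose and 3.54% fell. Nr1d1, the repressor REV-ERB alpha, was at 48.6, 53.5, 88.5 and 78.1 CPM in Abx_14D 1 to 4 and 0, 22.02, 18.3 and 25.6 CPM in Ctrl 1 to 4, a rise of 1.80 ± 0.31 (adjusted p = 0.000435). Nfil3, which represses targets of Dbp and Tef, averaged 5.67 ± 2.02 CPM in Abx_14D and 22.6 ± 7.71 CPM in Ctrl (-2.0 ± 0.42). Both genes were separate between groups. Dbp had 1 count in Ctrl and was 41.5-fold higher in Abx_14D, with a wide counting interval (7.28 to 1660). The groups overlapped for Dbp (3.15 CPM in Ctrl 2 against 2.51 CPM in Abx_14D 2), Nr1d2 and Per3. Tef rose by 2.20 ± 0.41, while Per2 lost its call without Ctrl 4 (adjusted p = 0.0979) and Per3 without Abx_14D 4 or Ctrl 2 or 3 (up to 0.182). Of clock genes 0 of 15 passed in stem and early crypt cells (median -0.10), in cycling cells 0 of 14 and in goblet cells 0 of 15. The change differed between absorptive and stem and early crypt cells for Nr1d1 (1.36 ± 0.37, adjusted p = 0.0491) and Per2 (2.21 ± 0.41, 0.00438). Without Abx_14D 3 and 4, the count in absorptive cells was 2 up and 0 down. The hour at which tissue was taken is not given in the sources used here, and its part was not tested.

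The title of the series names nicotinic acid and regional identity. Of 34 genes of nicotinic acid and NAD, 2 of 16 tested fell in absorptive cells and 0 rose (median 0.16, where 3.54% of all genes fell). Cd38, which breaks down NAD, was at 108, 155, 109 and 124 CPM in Abx_14D 1 to 4 and 399, 673, 463 and 845 CPM in Ctrl 1 to 4, a fall of 2.27 ± 0.22 (adjusted p = 1.35e-07). Slc5a8, a carrier of short-chain fatty acids and nicotinate, was at 91.1, 125, 101 and 77.7 CPM in Abx_14D 1 to 4 and 204, 214, 266 and 292 CPM in Ctrl 1 to 4 (log2 change -1.33 ± 0.25). Neither overlapped. None of the 6 NAD synthesis genes tested passed. The list had 0 of 20 called in stem and early crypt cells, and in cycling cells Nmnat2, an enzyme of NAD synthesis, rose by 1.20 ± 0.27, a call lost without Ctrl 2 (adjusted p = 0.0912). Of 27 regional transcription factors, 1 of 16 tested passed in absorptive cells (Hoxb6, log2 change -0.70 ± 0.21, adjusted p = 0.0455) and 0 of 16 in stem and early crypt, cycling or goblet cells. In absorptive cells 7.37% of all genes passed. Hoxb6 lost its call without any 1 sample other than Abx_14D 2 and Ctrl 1 (adjusted p up to 0.192). Oxct1, which feeds ketone bodies into energy metabolism, rose by 2.35 ± 0.29 in absorptive cells.

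**Figure D4:**
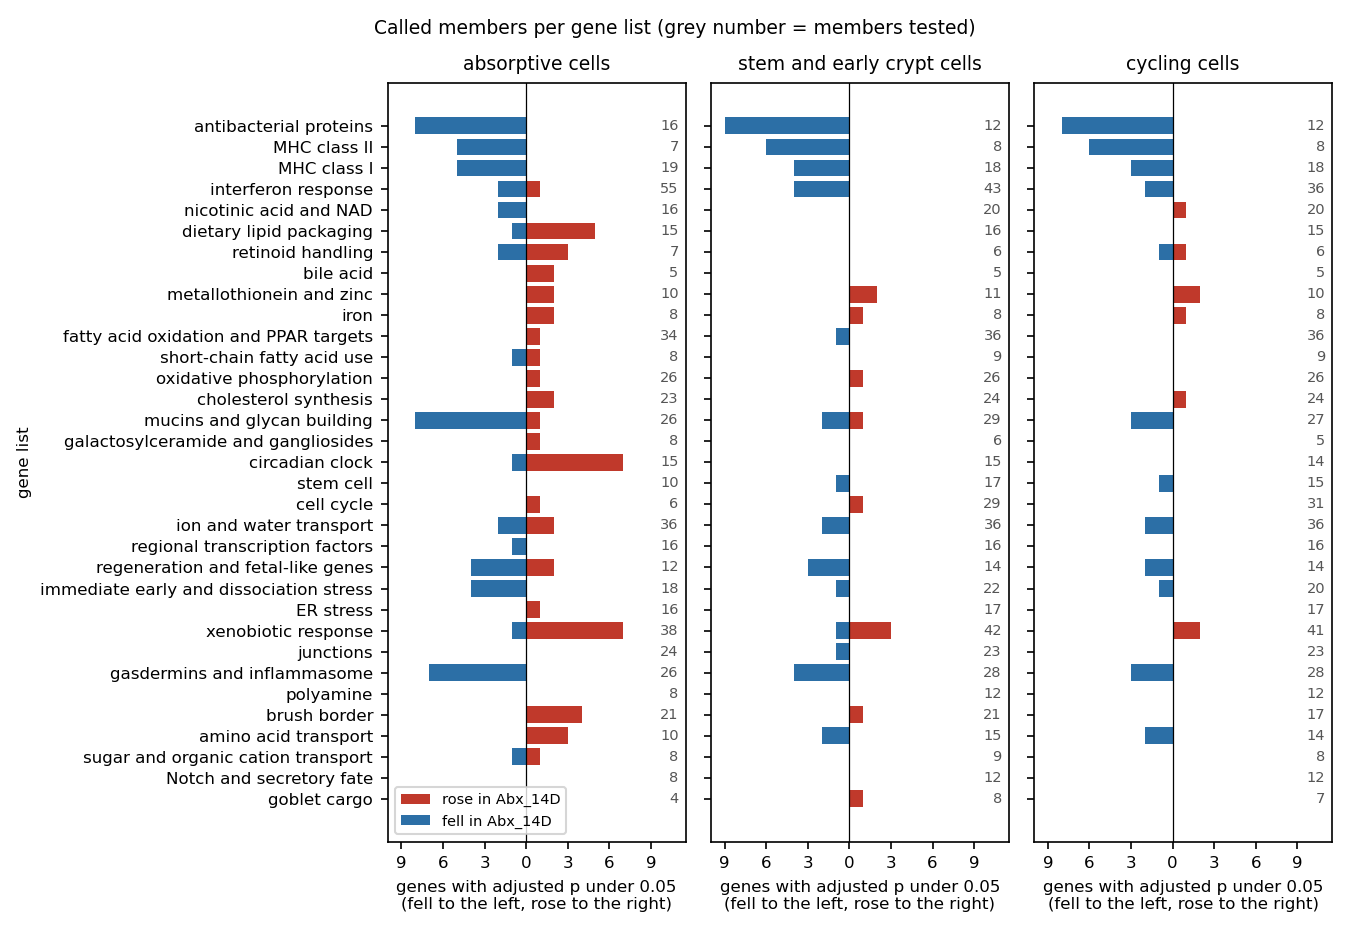
Number of genes per list (rows) that passed an adjusted p under 0.05 in 3 classes (panels), with genes that fell in Abx_14D to the left (blue) and genes that rose to the right (red), and the number tested in grey. Antibacterial, class II and gasdermin lists reach left in each panel, and the clock, lipid and xenobiotic lists reach right in the absorptive panel.

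Lists of stem cell identity, division and energy metabolism showed few calls. Among all genes tested, 7.37% passed in absorptive, 1.89% in stem and early crypt and 1.52% in cycling cells. Of 17 stem cell genes tested in stem and early crypt cells 1 passed, Prom1, a membrane protein of stem and early progenitor cells. It was at 185, 266, 224 and 232 CPM in Abx_14D 1 to 4 and 415, 478, 467 and 481 CPM in Ctrl 1 to 4 (log2 change -1.02 ± 0.17, adjusted p = 0.00102), without overlap. Lgr5, the receptor that marks cycling stem cells and a gate marker of this class, averaged 490 ± 130 CPM in Abx_14D and 527 ± 70.1 CPM in Ctrl (-0.10 ± 0.18, adjusted p = 0.863). Of the cell cycle list 0 of 31 passed in cycling cells, of which 14 are gate markers, and 1 of 29 in stem and early crypt cells (Kif11). That call was lost without Abx_14D 2 or 3 or Ctrl 1, 2 or 4 (adjusted p up to 0.0907). It was also lost with the gate at 0.5 or 2 times the cut (adjusted p = 0.452 and 0.391), and Kif11 is a gate marker of cycling cells. Of 26 genes of oxidative phosphorylation 1 rose in absorptive cells (Ndufa4) and 1 in stem and early crypt cells (Ndufa9), with medians of 0.21 and 0.35. Of polyamine genes 0 of 8 passed in absorptive and 0 of 12 in stem and early crypt cells, and of Notch and secretory fate genes 0 of 8 and 0 of 12.

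The rises in stem and early crypt cells named by the rule were Mt2 (2.92), Adgrb3 (2.45), Mt1 (2.04), Fcgbp (1.91), Dnah11 (1.81), Akr1c14 (1.72), Gpc6 (1.68), Ces2e (1.57), Syn2 (1.51), Pde7b (1.47), Tfrc (1.44) and Muc16 (1.44) on the log2 scale. Akr1c14, a hydroxysteroid dehydrogenase, was at 77.3, 100, 125 and 85.6 CPM in Abx_14D 1 to 4 and 27.4, 20.6, 34.9 and 33.9 CPM in Ctrl 1 to 4 (adjusted p = 1.13e-05). Adgrb3, an adhesion receptor, averaged 108 ± 51.5 CPM in Abx_14D and 19.6 ± 5.89 CPM in Ctrl. Groups did not overlap in any of these genes. The calls of Fcgbp and Dnah11 were lost without Abx_14D 2 or Ctrl 2, 3 or 4 (adjusted p up to 0.161 and 0.0829), with Fcgbp at 1.17 without Abx_14D 2. Gpc6 lost its call without any 1 sample other than Ctrl 1 (up to 0.138), and Ces2e without any 1 sample other than Abx_14D 1 and 2 (up to 0.162). Dnah11, Gpc6 and Ces2e also lost their calls without Abx_14D 3 and 4 together (adjusted p = 0.073, 0.219 and 0.34).

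Cycling cells repeated much of the crypt pattern. Reg3b had 3 counts in Abx_14D and was 486-fold lower than in Ctrl (95% counting interval 165 to 2360). Plet1 fell by 5.67 ± 0.50, Cd177 by 5.28 ± 0.47, Reg3g by 5.23 ± 0.43, Pla2g5 by 4.77 ± 0.58 and Ly6a by 3.41 ± 0.39. Lrrtm1, a synaptic adhesion protein, was at 12.6, 35.5, 34.7 and 36.7 CPM in Abx_14D 1 to 4 and 5.03, 0, 1.24 and 4.33 CPM in Ctrl 1 to 4, the largest rise among the named genes of this class (3.41 ± 0.59). Pcdh17, a protocadherin, was at 92.9, 125, 123 and 162 CPM in Abx_14D 1 to 4 and 27.7, 30.0, 44.6 and 20.02 CPM in Ctrl 1 to 4 (2.09 ± 0.25, adjusted p = 2.6e-05). Both were separate between groups. Gpam, the first enzyme of triglyceride synthesis, rose by 1.33 ± 0.21, Cyp2d26, a cytochrome P450, by 1.33 ± 0.23 and Ndrg1, a stress-responsive protein, by 1.32 ± 0.26. Ndrg1 lost its call without Abx_14D 3 and 4 (0.87, adjusted p = 0.232) and with the gate at 0.5 or 2 times the cut (0.89, 0.0752 and 0.56, 0.64), and Cyp2d26 at 2 times the cut (1.16, 0.0836). Cd200 (1.79), Akr1c14 (1.37), Cyp4f14 (1.32) and Chst8 (1.31) each lost their call without 1 of 2 to 6 samples (Abx_14D 4, Ctrl 2 or 4 for Cd200, Abx_14D 3 or Ctrl 1 for Akr1c14, any but Abx_14D 4 and Ctrl 1 for Cyp4f14, Abx_14D 2 or 3 or Ctrl 3 or 4 for Chst8, adjusted p up to 0.115), and all 4 without Abx_14D 3 and 4 together (0.0625 to 0.244).

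Goblet cells rest on 23 to 52 cells per Abx_14D sample and 12 to 31 per Ctrl sample. Retnlb, a goblet cell protein that acts on bacteria and worms, was at 83.9, 127, 136 and 125 CPM in Abx_14D 1 to 4 and 492, 1037, 464 and 697 CPM in Ctrl 1 to 4 (log2 change -2.53 ± 0.49, adjusted p = 0.0371). It was the 1 called gene of 14 goblet cargo genes tested, where 0.123% of all genes fell. Cd177 was at 12.2, 14.9, 3.61 and 0 CPM in Abx_14D 1 to 4 and 234, 210, 181 and 120 CPM in Ctrl 1 to 4 (-4.55 ± 0.55), and Cd74 at 25.5, 14.9, 9.63 and 10.03 CPM and 234, 106, 147 and 258 CPM (-3.58 ± 0.49), with Abx_14D first. Every Ctrl sample exceeded every Abx_14D sample for these 3 genes. The other falls were Ceacam10 (4.49), Duox2 (3.58), Tgm2 (2.56), Tnfrsf23 (2.29), Lgmn (2.17), Dnajb1 (1.86), Tifa (1.66) and Fut2 (1.59), and the named rises were Pcdh17, 20.7-fold (95% counting interval 6.86 to 102, with 3 counts in Ctrl), and Gm43824 (2.44). Cd177 and Cd74 kept their calls with any 1 sample left out. Each of the other named goblet genes lost its call without 1 of at least 3 samples (adjusted p up to 0.284), with 2 to 18 genes called in all. Without Abx_14D 3 and 4, Retnlb (adjusted p = 0.0652) and the 8 other falls lost their calls (0.215 to 0.267). Tnfrsf23 was also lost with the sample number as a block (adjusted p = 0.0696), with which 22 genes passed. Mt1 (110 ± 77.3 CPM in Abx_14D and 17.4 ± 7.48 CPM in Ctrl, adjusted p = 0.187) and Tfrc (789 ± 188 and 327 ± 174 CPM, 0.162) did not pass in goblet cells.

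The change was compared directly between absorptive and stem and early crypt cells of the same samples. Of 10993 genes, 167 had a higher and 199 a lower log2 change in absorptive cells (366 genes, 3.33%, with 1.52% higher and 1.81% lower), 15.7% had an unadjusted p under 0.05, and without Ctrl 4 the count was 178. The largest positive differences were Homer2 (6.16 ± 0.95), Nr4a1 (5.53 ± 1.29), Prss23 (4.43 ± 0.90), Slc22a4 (4.16 ± 0.87), Cd177 (3.63 ± 0.65), Lamc1 (3.49 ± 0.60), Gsta1 (3.32 ± 0.77) and Prr16 (3.25 ± 0.68). The largest negative ones were Reg3g (-5.01 ± 0.77), Ubd (-4.88 ± 1.13), Gm52981 (-4.05 ± 0.69), Plet1 (-3.97 ± 0.87), Fry (-3.62 ± 0.59), Gm15987 (-3.60 ± 0.81), Rdh1 (-3.42 ± 0.41) and Muc4 (-3.37 ± 0.26). Lamc1, a laminin chain, averaged 11.4 CPM in Abx_14D and 0.515 CPM in Ctrl in absorptive cells, and 41.7 and 36.5 CPM in stem and early crypt cells. Rdh1, a retinol dehydrogenase, averaged 2.54 and 38.5 CPM in absorptive and 91.5 and 115 CPM in stem and early crypt cells, in the same order. The positive value of Cd177 goes with its fall in the crypt. Nr4a1, an immediate early gene, had 0 CPM in absorptive cells of Ctrl, so that its difference depends on the prior count of the fit. Slc22a4 (1.99 and 3.36 CPM in Abx_14D and Ctrl), Gsta1 (1.75 and 1.80) and Ubd (6.14 and 2.07) were too low to test in stem and early crypt cells alone. Gm15987 was too low in absorptive cells (0.132 and 3.75 CPM).

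Calls of the difference were lost without Ctrl 4 for Slc22a4 (adjusted p = 0.0897), without Ctrl 3 or 4 for Gsta1 and Prr16 (up to 0.16 and 0.116), without Abx_14D 3 or Ctrl 3 or 4 for Nr4a1 (up to 0.124), without Abx_14D 3 or Ctrl 2 for Ubd (up to 0.0969), and without Abx_14D 3 or Ctrl 3 for Gm15987 (up to 0.71, with -2.07 without Ctrl 3). Fry kept its call at -2.32 without Abx_14D 3. Homer2, Prss23, Cd177, Lamc1, Reg3g, Gm52981, Rdh1 and Muc4 kept theirs with any 1 sample left out.

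**Figure D5:**
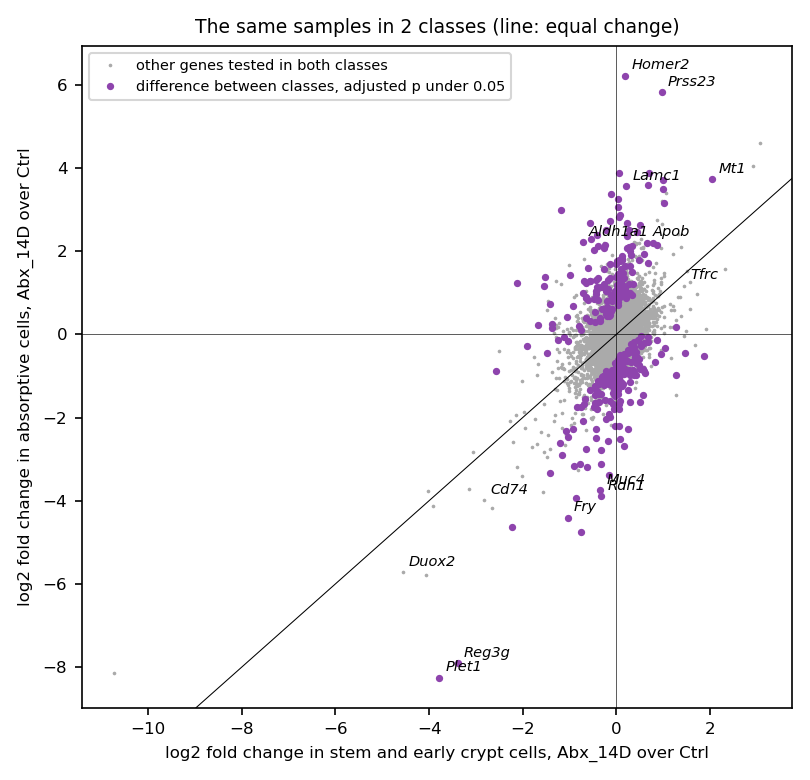
Log2 fold change of Abx_14D over Ctrl in stem and early crypt cells (horizontal axis) and in absorptive cells (vertical axis) for the 8615 genes tested in both classes, with the 335 genes whose change differs at an adjusted p under 0.05 in purple and a line of equal change. Duox2 and Cd74 lie near that line, and Muc4, Rdh1 and Homer2 lie far from it near a crypt change of 0. The leftmost point is Reg3b, whose crypt value has 0 counts in Abx_14D.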

How the data were processed

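The authors deposited 1 matrix of transcript counts per cell and gene (unique molecules, not normalised) with tables of cells and genes. Per the submitters' processing notes, the build mm39 and Seurat were used, and the sources used here name no aligner, counter or annotation release. The 8 GEO samples are sublibraries that mix all conditions, so each cell's group was read from the cell table's own sample field. Kept cells were gated on markers with cuts set after seeing the marker sums over all cecal cells, and doublets were not called. Counts were summed per sample and class (at least 10 cells) and compared with edgeR 4.0.16 (R 4.3.3) by its quasi-likelihood test. Library-size scaling, the default low-count filter, Benjamini-Hochberg adjustment and a threshold of 0.05 were used. All 16 cecal samples (Ctrl, Abx_4D, Abx_14D and GF) shared 1 fit. The Abx_4D and GF samples thus also entered the low-count filter and the estimate of spread. CPM are counts per 1000000 of those sums.

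The difference between classes was fitted with the sample as a block. For shares, exact two-sided permutation tests ran over all 70 arrangements, and an exact sign-flip test over same-numbered pairs was added after seeing the data. Named genes passed the threshold, reached 20 CPM in either group and did not overlap between groups, up to 12 in each direction and class and 8 for the difference between classes. Members of 37 gene lists were also named, and 1 gene that the rule names is not reported here. The groups, gene lists and rules were chosen with earlier results of these data known. In sums over all cells, same-numbered samples deviated together (correlations of 0.225 to 0.294 for the 4 pairs). The main fit took the samples as unpaired, and the sample number was a block in an alternative only. By Xist, Abx_14D 2 was high and Ctrl 2 low, and Abx_14D 3 was low and Ctrl 3 high. Correlations between differently numbered samples ranged up to 0.353 (Abx_14D 3 with Ctrl 4), so not every sample correlated best with its own number. Within classes the same-numbered correlations were -0.13 to 0.04 in absorptive and -0.003 to 0.17 in stem and early crypt cells. They were 0.063 to 0.223 in cycling and 0.013 to 0.088 in goblet cells. The model scripts were tested on simulated data. Alternatives were TMM scaling, DESeq2 1.42.0, limma 3.58.1, other filters, gates and sample sets. Intervals and floors cover counting error only.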

Additional observations from a re-analysis of the deposited data

Results flagged for a closer look

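Dixon's test was applied to 434 groups of 4 samples, and 30 held a sample that stood apart from the other 3. Chance flags about 1 in 20 groups. In absorptive cells of Ctrl 1, which are 10 cells, the samples standing apart were 1700057G04Rik at 14.3 CPM, Creb3l3 at 23.8 CPM, Dgat1 at 9.51 CPM, Grin3a at 19.0 CPM and Homer2 at 4.75 CPM. In absorptive cells of Ctrl 2 they were Aqp4 at 346 CPM, Cyp4f14 at 126 CPM, Dbp at 3.15 CPM, Itpripl2 at 0 CPM, Mep1a at 264 CPM and Pglyrp1 at 261 CPM, and in those of Ctrl 3 Bhlhe40 at 29.1 CPM. In absorptive cells of Abx_14D 1 they were Cobl at 431 CPM, Duoxa2 at 4.56 CPM, Naaladl1 at 83.5 CPM and S100g at 9.11 CPM.

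Over all cells the samples standing apart were Abx_14D 1 for Reg3b at 2.54 CPM, and Ctrl 2 for Cd74 at 333 CPM and Plscr4 at 2.83 CPM. In cycling cells they were Abx_14D 1 for Lrrtm1 at 12.6 CPM, Ctrl 2 for Mt2 at 8.58 CPM, and Ctrl 3 for Fut2 at 28.5 CPM. In stem and early crypt cells they were Abx_14D 1 for Apob at 147 CPM, Ctrl 4 for H2-Aa at 51.7 CPM and H2-Ab1 at 103 CPM, and Ctrl 1 for H2-K1 at 278 CPM. The cycling share of Abx_14D 3 was 22.6%, and the immune share of Abx_14D 1 was 0.449% of its cells, with immune markers at 48.3 CPM in all its cells. Paneth cell markers summed to 4.13 CPM in Ctrl 2.

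By the test of the difference itself, 16 named genes changed differently in absorptive than in stem and early crypt cells. Among them Nr4a1, Slc22a4, Gsta1, Ubd, Gm15987 and Cd177 were too low to test within one of these classes alone. On the log2 scale the difference was positive for Homer2 (6.16), Nr4a1 (5.53), Prss23 (4.43), Slc22a4 (4.16), Cd177 (3.63), Lamc1 (3.49), Gsta1 (3.32) and Prr16 (3.25). It was negative for Reg3g (-5.01), Ubd (-4.88), Gm52981 (-4.05), Plet1 (-3.97), Fry (-3.62), Gm15987 (-3.60), Rdh1 (-3.42) and Muc4 (-3.37).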

How the results depend on the processing

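Of 214 called gene results, 131 were called under every alternative run for them and 0 reversed. With DESeq2, 615 genes passed over all cells, 375 in stem and early crypt, 275 in cycling and 45 in goblet cells, and with limma-voom 8 passed in goblet cells. Without a filter on low counts, 589 passed in stem and early crypt, 419 in cycling and 169 in goblet cells and 628 for the difference between classes. A fit on the Abx_14D and Ctrl samples alone gave 175 over all cells. Without the samples over 0.5% mitochondrial transcripts, 86 passed over all cells, 322 in absorptive, 83 in stem and early crypt, 60 in cycling and 6 in goblet cells. In Abx_14D this leaves samples 1 and 2 only, which are both Xist-high. With the replicate number as a block, 582 passed over all cells and 22 in goblet cells. The block ended the calls of Dgat1 in absorptive and Tnfrsf23 in goblet cells and of no other named gene. Cycling cells gated at 2 times the cut gave 77 genes, and at 0.5 times the cut their share changed sign (-1.20 percentage points, Abx_14D minus Ctrl, against 2.03). Leaving out 1 sample gave 154 to 310 genes over all cells, 414 to 701 in absorptive, 143 to 194 in stem and early crypt, 104 to 187 in cycling and 2 to 18 in goblet cells, and 178 to 385 for the difference. Xist class as a covariate, chosen after seeing the data, gave 360 genes over all cells. The causes were not tested. Few cells limit the absorptive class in Ctrl 1 and the goblet class.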
